A study of Mus musculus with 4 samples.

Results

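Translation factors are the proteins that load ribosomes onto mRNA, drive them along it and release them. Their mRNAs were taken from the authors' deposited table by name. Every row counted whose gene id begins with Eif1 to Eif6, Eef1 or Eef2, or is Abce1, Etf1, Gspt1 or Gspt2. The kinases of eIF2 (Eif2ak), the older Eif2c names and the Y-linked Eif2s3y were left out. The rule found 62 of the 23922 genes in the table, in 12 groups by factor complex, and the authors tested 50 of the 62. RNA came from the mouse embryonic stem line E14, grown in serum with leukemia inhibitory factor on gelatin. The cells were transfected by RNAiMAX with an esiRNA, a pool of short interfering RNAs, against PNLDC1 (2 libraries) or Luc (2 libraries). The sources used here do not give the time after transfection. Total RNA was freed of ribosomal RNA and of RNA below 200 nt before sequencing.

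The table gives each gene 1 value in each of 2 conditions, named q2 and q1, and no source used here says which of them received the PNLDC1 esiRNA. Each difference is therefore given as q2 against q1, and none is a direction of silencing. Single libraries have no values in it, and therefore SDs cannot be given. The only measure of error is the authors' Cuffdiff test, whose spread may be technical, since no label says that libraries came from separate cultures. Pnldc1 itself, the target, had 26.8 in q2 and 18.1 in q1 in the authors' deposited table and did not pass (Cuffdiff p = 0.118, q = 0.399). The values are taken as FPKM, fragments scaled by transcript length and by depth, which is what Cuffdiff writes by default. The spacing of low values corresponds to about 1402000 fragments in q2 and 1210000 in q1. On that scale the median tested factor rested on about 391 fragments in q2 and 314 in q1. The 10 markers of undifferentiated stem cells, Pou5f1 and Nanog among them, lay between 18.2 and 864.9 in q2 and between 27.5 and 713.9 in q1. Of 7 fibroblast markers, 5 were listed at 0 in both conditions, and the list summed to 13.03 in q2 and 6.49 in q1, nearly all of it Thy1. In bulk RNA, fewer cells of a kind and less RNA per cell cannot be told apart.

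Initiation begins when eIF2 carries the initiator tRNA to the small ribosomal subunit together with eIF1, eIF1A, eIF3 and eIF5. The eIF4F complex brings this assembly to the mRNA cap, where eIF4E-binding proteins can block it. eIF5B then joins the large subunit, whose premature joining eIF6 prevents. eEF1 delivers aminoacyl-tRNAs and eEF2 moves the ribosome on, until eRF1 (Etf1), eRF3 (Gspt1 and Gspt2) and the recycling factor Abce1 end the round. Stem cells are known for a low rate of protein synthesis, held in part by eIF4E-binding proteins.

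Of the 50 tested factors, 6 passed the authors' Cuffdiff test at a q under 0.05. Eif6, Eef1b2 and Eif4ebp1 were higher in q2, and Eif5b, Eif3f and Abce1 were higher in q1. That is 12% of the tested factors, beside 4.25% of all 5719 tested genes. By direction, 2.31% of all tested genes passed as higher in q2 and 1.94% as higher in q1. An unadjusted p under 0.05 was reached by 16 factors (32%), 6 of them higher in q2 and 10 lower, beside 18.8% of all tested genes. Small ratios were not particular to the factors. The median absolute log2 ratio was 0.24 for the tested factors and 0.27 for all tested genes. The ratio stayed under 1.5-fold for 43 of the 50, which was not counted over all tested genes. Of the 50 factors, 2 reached 2-fold, beside 4.7% of all tested genes. That share does not count the 65 tested genes at 0 in a condition, which have no finite ratio, as reaching 2-fold. The median log2 ratio of q2 over q1 was 0.05 for the tested factors and 0.06 for all tested genes. Recentring on the median of all tested genes turned the sign of 5 factors and recentring on the upper quartiles (a shift of 0.14) turned 11. None of those 11 passed, and the largest of their log2 ratios was 0.12. Subtracting the median of the 200 genes nearest in GC content and length turned 13 factors, with log2 ratios of up to 0.29 in size. These were Eif1a, Eif2b4, Eif3b, Eif3i, Eif3k, Eif3l, Eif4e, Eif4g2, Eif4h, Eif5a, Eef1a1, Eef1d and Eef1g, and none of them passed. The 6 factors that passed kept their signs under all 3.

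**Figure D1:**
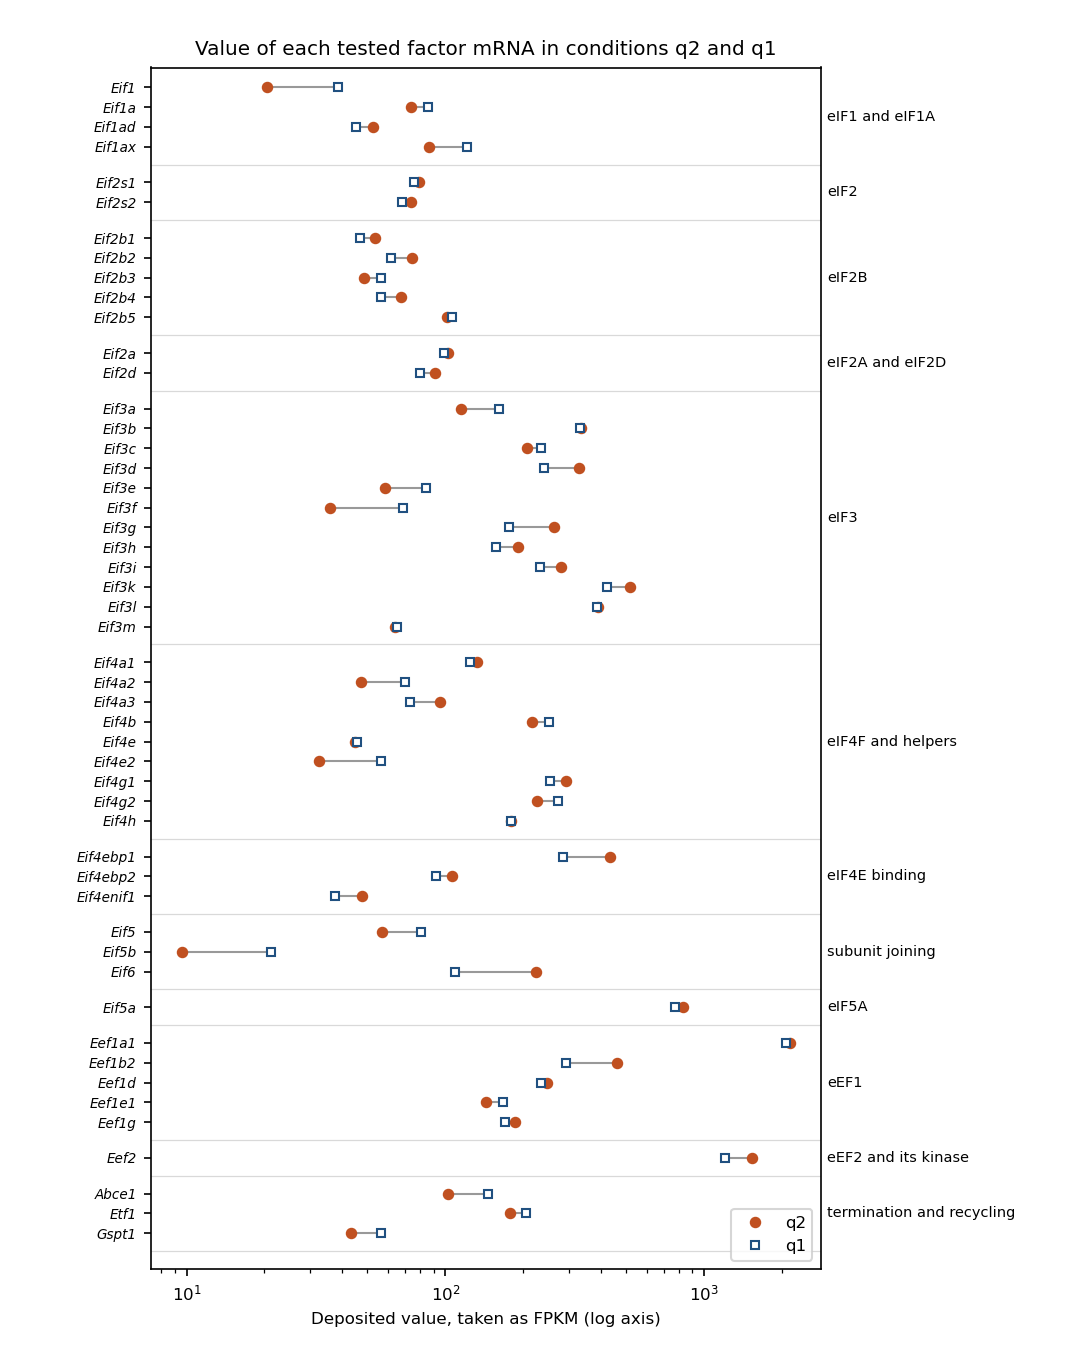
Values of the 50 tested factor mRNAs in the authors' deposited table, taken as FPKM on a log axis, grouped by complex. Filled circles are q2 and open squares q1; there is 1 value per condition and no error bar. Eef1a1 and Eef2 stand above 1000 in both conditions, and the widest gaps are those of Eif5b and Eif6.

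Many factor mRNAs are known as TOP mRNAs, which begin with a C and a run of pyrimidines and whose translation follows mTOR. Of 10 such factors known from mammals, 9 were tested. Their log2 ratios ran from -0.94 (Eif3f) to 0.67 (Eef1b2), with 6 above 0 and 3 below and a median of 0.07; those near 0, Eef1a1 among them, turned sign with recentring. The other 41 tested factors had a median of 0.01, and 2 of the 9 and 4 of the 41 passed. Known TOP mRNAs of the set thus included a factor that passed in each direction. Pabpc1, a known TOP mRNA that the naming rule does not take in, passed as lower in q2 (log2 ratio -1.54, Cuffdiff q = 0.00367). The annotated RefSeq starts are shown for those of the 6 factors that passed whose start is in the table used here, and for Eef1a1 as the best known TOP mRNA. Capitals mark the unbroken run of C or T from the start base, after 10 bases that lie before it (GRCm38.p6, sense strand).
Eif3f, chr7:108934405-108934434, plus strand: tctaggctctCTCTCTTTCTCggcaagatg
Eef1a1, chr9:78481705-78481734, minus strand: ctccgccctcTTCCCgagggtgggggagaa
Eef1b2, chr1:63176821-63176850, plus strand: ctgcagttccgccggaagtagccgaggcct
Eif5b, chr1:37998000-37998029, plus strand: ctgggttcccacctggccggcggctctact
Abce1, chr8:79711721-79711750, minus strand: tgacgtcaccaacgtcatcactccctccag
A run of at least 5 C or T from the start base, read on the sense strand, was found in 2 of 50 start windows of 39 tested factors, those of Eif3f and Eef1a1, and in 4.44% of all 32851 windows. An annotated start can lie some bases from the true one, so the lack of a run in the other windows says only that these letters are not at that base. Eif3f with the run of 11 was lower in q2, and Eef1a1 with the run of 5 had a log2 ratio of 0.05.

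The factors that act at subunit joining held the extremes of the tested set, in opposite directions, before any subtraction. With the length and GC trend subtracted, Eif6 had a log2 ratio of 0.66, beside 0.65 for Eef1b2. Eif5b then had -0.83 and was no longer the lowest, as Eif1 had -1.11. Eif6, which keeps the large ribosomal subunit from joining too early and also serves in its assembly, had 223.8 in q2 and 109.4 in q1 in the authors' deposited table. This is 2.05-fold higher in q2 (log2 ratio 1.03, the authors' Cuffdiff p = 5e-05, q = 0.00367) and rests on about 471 fragments in q2 and 199 in q1. Eif5b, the GTPase that joins the subunits, had 9.58 in q2 and 21.3 in q1 in that deposited table. It was 2.22-fold lower in q2 (log2 ratio -1.15, the authors' Cuffdiff p = 1e-04, q = 0.00608), on about 105 fragments in q2 and 201 in q1. Its value in q2 was the lowest of any tested factor. Taken per length, the Eif6 value was 23.4 times that of Eif5b in q2 and 5.14 times in q1. Eif5, the GTPase activator of eIF2 that leaves before joining, had 56.9 in q2 and 80.2 in q1 in the authors' deposited table and did not pass (log2 ratio -0.49, Cuffdiff q = 0.0894). Eif6 lies on chromosome 2 from 155819832 to 155826925, minus strand, and Eif5b on chromosome 1 from 37998010 to 38055579, plus strand (GRCm38). The 3′ end of Eif5b overlaps Rev1 on the opposite strand by 2794 bases. Rev1 had 17.4 in q2 and 20.5 in q1, and whether its reads enter the Eif5b value was not tested.

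Among the elongation factors Eef1b2 alone passed. Eef1b2, the nucleotide exchange factor that recharges eEF1A with GTP, had 462.2 in q2 and 291.3 in q1 in the authors' deposited table. It was 1.59-fold higher in q2 (log2 ratio 0.67, the authors' Cuffdiff p = 5e-05, q = 0.00367; chromosome 1, 63176825 to 63180486). The other parts of the same exchange complex did not pass. Eef1d had 246.7 in q2 and 234.2 in q1 (log2 ratio 0.07), and Eef1g had 185.0 in q2 and 170.1 in q1 (0.12), in the authors' deposited table. Eef1a1, the GTPase that carries aminoacyl-tRNA and the most abundant factor per length, had 2152 in q2 and 2079 in q1 in the authors' deposited table (log2 ratio 0.05, Cuffdiff q = 0.882). The signs of Eef1a1, Eef1d and Eef1g turned with recentring on the upper quartiles. Eef1a2, the form known from muscle and neurons, was not tested and stood at 0.696 in q2 and 0.809 in q1. Eef1e1, which sits in the multi-synthetase complex, had 143.2 in q2 and 167.2 in q1 (log2 ratio -0.22).

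Eef2, the translocase, had 1535 in q2 and 1198 in q1 in the authors' deposited table (log2 ratio 0.36, Cuffdiff p = 0.0176, q = 0.162). It was thus higher in q2 by 1.28-fold but did not pass. Its kinase Eef2k, which switches eEF2 off, was untested, with 7.67 in q2 and 5.85 in q1. Eif5a, which eases the ribosome over difficult peptide stretches, had 830.5 in q2 and 770.5 in q1 in the authors' deposited table (log2 ratio 0.11, turning sign with recentring on the upper quartiles, Cuffdiff q = 0.744). Its paralog Eif5a2 was untested at 3.09 in q2 and 6.68 in q1.

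Eif4ebp1 was the factor of the cap-binding step that passed. It encodes the repressor that holds eIF4E off the scaffold eIF4G until mTOR phosphorylates it. The authors' deposited table gave it 433.5 in q2 and 284.2 in q1, which is 1.53-fold higher in q2 (log2 ratio 0.61, Cuffdiff p = 0.0008, q = 0.0263; chromosome 8, 27260329 to 27276674). The other tested binders of eIF4E also had higher values in q2 without passing. These were Eif4ebp2 with 106.5 in q2 and 91.9 in q1, and the transporter Eif4enif1 with 47.6 in q2 and 37.4 in q1 (log2 ratios 0.21 and 0.35). Their target Eif4e, the cap-binding protein, had 44.6 in q2 and 45.7 in q1 in the authors' deposited table (log2 ratio -0.03, Cuffdiff q = 0.951). Per length, the Eif4ebp1 value was 9.71 times the Eif4e value in q2 and 6.23 times in q1. Eif4ebp3 was untested, at 8.17 in q2 and 12.5 in q1.

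None of the 9 tested genes of eIF4F and its helpers passed, and 2 of them, Eif4e2 and Eif4a2, reached an unadjusted Cuffdiff p under 0.05. Eif4e2, a cap-binding homolog that represses rather than promotes initiation, had 32.4 in q2 and 56.3 in q1 in the authors' deposited table (log2 ratio -0.80, Cuffdiff p = 0.00355, q = 0.0636). The paralogous helicases Eif4a1 and Eif4a2, which unwind the 5′ end, had ratios of opposite sign. Eif4a2 had 47.2 in q2 and 69.8 in q1 (log2 ratio -0.56, Cuffdiff p = 0.0161, q = 0.153), while Eif4a1 had 132.3 in q2 and 124.8 in q1 (0.08), both from the authors' deposited table. The sign of Eif4a1 turned with recentring on the upper quartiles, and the difference between the paralogs was not itself tested. The scaffolds Eif4g1 and Eif4g2 had log2 ratios of 0.20 and -0.28, and the helicase cofactors Eif4b and Eif4h had -0.21 and 0.00. Eif4a3, which works in the exon junction complex, had 0.39. Eif4g3 (6.44 in q2 and 6.60 in q1) was untested, and Eif4e1b and Eif4e3 stayed under 1 in both conditions.

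Eif4a2 and 7 other tested factors have small nucleolar RNA genes annotated within the span of the gene, so host and guest could share reads. A shared strand was not required for this count. The guest RNAs are shorter than the 200 nt below which RNA was depleted. Snord2, a box C/D RNA that guides RNA methylation, sits in Eif4a2 on chromosome 16 from 23108953 to 23109020 in RefSeq (GRCm38.p6). It is shown because its value lay far from that of its host, with TGATG of the C box and CTGA of the D box in capitals (GENCODE M21 sequence, 1 base longer than the RefSeq interval):
Snord2: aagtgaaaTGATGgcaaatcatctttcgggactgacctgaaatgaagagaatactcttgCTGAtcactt
Snord2 had 16474 in q2 and 1544 in q1 in the authors' deposited table (log2 ratio 3.42, Cuffdiff q = 0.475), while its host had a log2 ratio of -0.56. Snord66 in Eif4g1 had 5351 in q2 and 1253 in q1, beside 0.20 for its host, and did not pass either (Cuffdiff q = 0.774). Snora81, also in Eif4a2, had a log2 ratio of -0.16. Snora41 in Eef1b2, Snord37 in Eef2, Snora19 in Eif3a and Snora28 in Eif5 were listed at 0 in both conditions. The median log2 ratio was -0.10 for the 8 hosts and 0.05 for the 42 other tested factors. The part of the guest RNAs in the host values was not tested.

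The eIF3 complex, the largest initiation factor and the platform for the small subunit, spread in both directions. Of its 14 genes 12 were tested and Eif3f alone passed. Eif3f, a subunit of the PCI/MPN core of the mammalian complex, had 35.8 in q2 and 68.5 in q1 in the authors' deposited table. It was 1.92-fold lower in q2 (log2 ratio -0.94, the authors' Cuffdiff p = 0.0013, q = 0.0372; chromosome 7, 108934417 to 108942951), on about 126 fragments in q2 and 209 in q1. Next below 0 came Eif3e, with 58.3 in q2 and 84.5 in q1 (log2 ratio -0.54, Cuffdiff q = 0.187, the authors' deposited table). Eif3a, the large scaffold subunit, had 114.8 in q2 and 161.3 in q1 in the authors' deposited table and narrowly missed the threshold (log2 ratio -0.49, Cuffdiff q = 0.0530). On the other side, the RNA-binding subunit Eif3g had 262.7 in q2 and 175.9 in q1 (log2 ratio 0.58, Cuffdiff q = 0.0602), again from the authors' deposited table. Eif3d, a subunit able to bind caps, had 327.4 in q2 and 240.6 in q1 in the authors' deposited table (log2 ratio 0.44, Cuffdiff q = 0.103). Subunits of 1 complex thus lay on both sides of 0, as 7 of the 12 had log2 ratios above 0 and 5 below. After recentring on the median of all tested genes, 5 lay above and 7 below. With the length and GC trend subtracted, only Eif3d (0.23), Eif3g (0.19) and Eif3h (0.09) stayed above 0, and all other tested subunits lay below.

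The remaining eIF3 subunits had log2 ratios between -0.17 (Eif3c) and 0.29 (Eif3k). Those of Eif3b and Eif3l, 0.01 each, turned sign with either recentring. Levels per length also differed within the complex. Eif3k was the highest, with 514.8 in q2 and 420.0 in q1. Among the 12 tested subunits Eif3f was lowest in q2, and Eif3m, at 63.7 in q2 and 64.8 in q1, was lowest in q1. The highest and lowest of these 12 were 14.4-fold apart in q2 and 6.48-fold in q1. The loosely bound subunit eIF3j has a pair of genes, Eif3j1 and Eif3j2, which are near-identical over 2379 bases. Both were listed at 0 in q2, with 0.162 and 0.163 in q1, and reads of such a pair cannot be given to either gene with certainty.

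**Figure D2:**
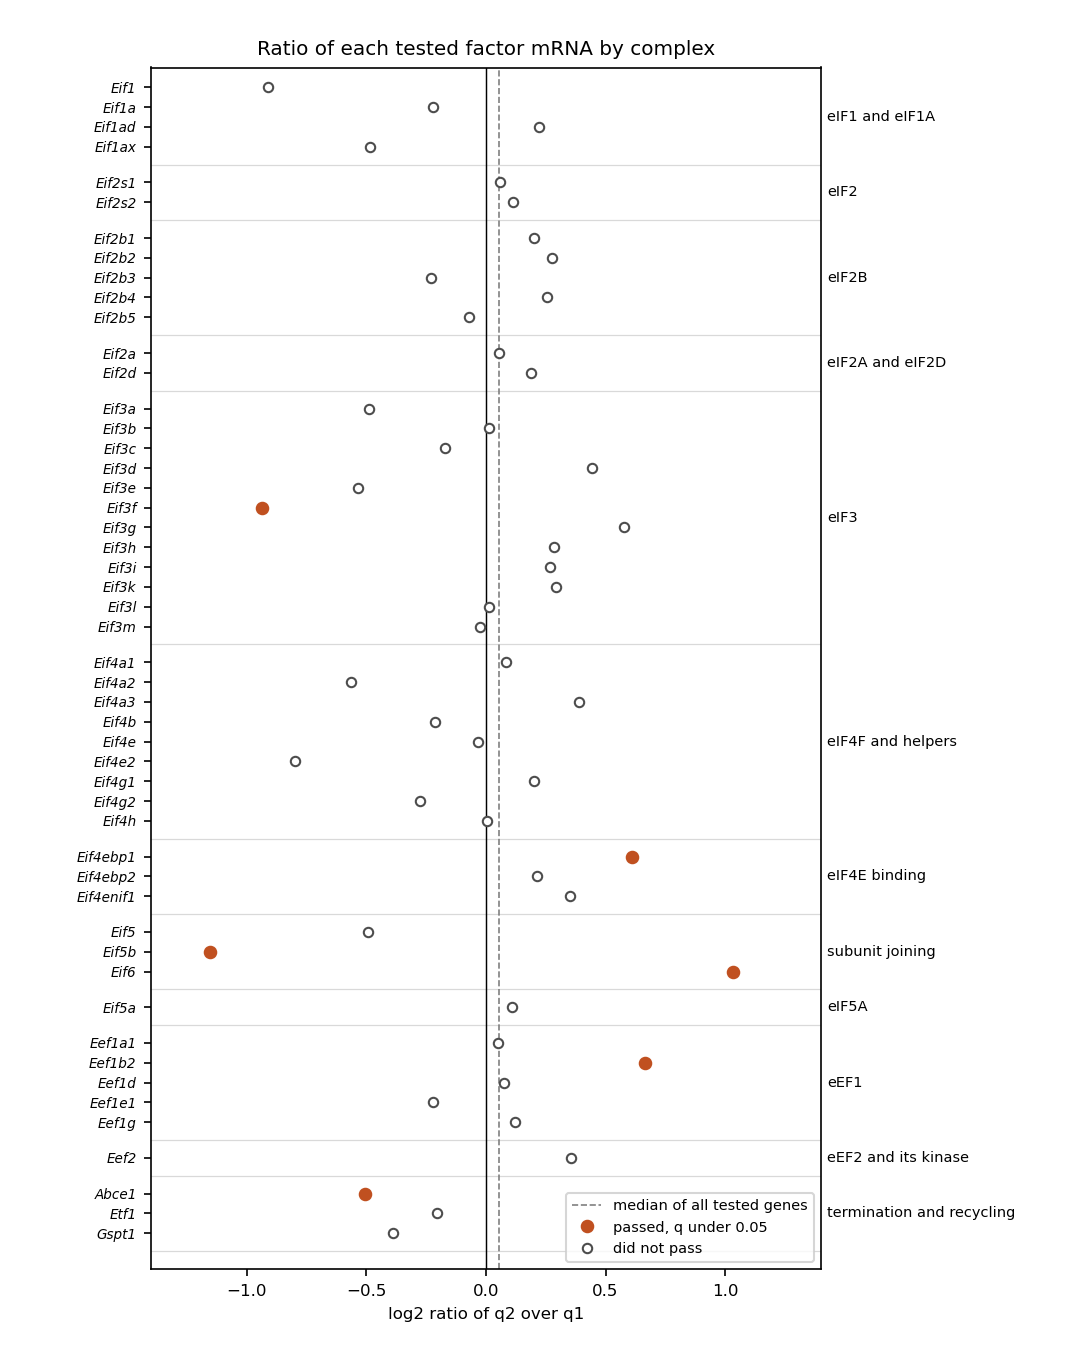
The log2 ratio of q2 over q1 of the 50 tested factor mRNAs, grouped by complex, with filled circles for the 6 that passed the authors' test and a dashed line at the median of all tested genes (0.06). The eIF3 subunits lie between -0.94 and 0.58, and the subunit joining factors hold both ends of the plot, at -1.15 and 1.03.

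Before any subtraction, factors that carry the initiator tRNA showed little difference between the conditions. Of eIF2, Eif2s1, the subunit phosphorylated under stress, had 79.1 in q2 and 75.8 in q1 (log2 ratio 0.06), and Eif2s2 had 73.6 in q2 and 68.1 in q1 (0.11). Both signs turned with recentring on the upper quartiles. With the length and GC trend subtracted, the log2 ratios were instead larger, at 0.36 for Eif2s1 and 0.33 for Eif2s2. Eif2s3x, the gamma subunit, was untested at 9.50 in q2 and 10.9 in q1. Of the 5 subunits of eIF2B, the exchange factor that recharges eIF2, all were tested and none passed, nor had any an unadjusted Cuffdiff p under 0.05. Their log2 ratios ran from -0.23 (Eif2b3) to 0.28 (Eif2b2), with a median of 0.20, which turned to -0.0049 with the length and GC trend subtracted, where Eif2b4 turned sign. Eif2a and Eif2d, which can deliver tRNA without eIF2, had 0.05 and 0.19, and the sign of Eif2a turned with either recentring.

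Of the 4 tested genes grouped under eIF1 and eIF1A, Eif1ad among them, 3 had higher values in q1, and none passed. Their median log2 ratio was -0.35, but -0.03 with the length and GC trend subtracted and -0.13 without members that have a near-identical copy. Eif1, which guards start-codon choice, had 20.5 in q2 and 38.5 in q1 in the authors' deposited table (log2 ratio -0.91, Cuffdiff p = 0.0252, q = 0.187). This is a 1.88-fold difference but rests on about 38.0 fragments in q2 and 61.6 in q1, the fewest of any tested factor, and Eif1 has 13 near-identical copies. The X-linked Eif1ax and the autosomal Eif1a, which encode forms of eIF1A, had log2 ratios of -0.48 and -0.22, which were -0.11 and 0.06 with the trend subtracted. Eif1ad, a nuclear protein that shares the eIF1A domain, had 0.22. Eif1b was untested at 5.38 in q2 and 7.41 in q1.

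All 3 tested factors of termination and recycling had lower values in q2, and Abce1 passed. Abce1, the ATPase that splits ribosomes after termination, had 102.5 in q2 and 145.6 in q1 in the authors' deposited table. It was 1.42-fold lower in q2 (log2 ratio -0.51, the authors' Cuffdiff p = 0.0021, q = 0.0494; chromosome 8, 79683462 to 79711740). This call lay just inside the threshold and was lost when histone, ribosomal protein and structural RNA genes were left out before adjustment. A processed pseudogene on the opposite strand overlaps Abce1 by 943 bases, and its part in the Abce1 value was not tested. Gspt1, the release factor GTPase, had 43.1 in q2 and 56.4 in q1 (log2 ratio -0.39, Cuffdiff p = 0.0239, q = 0.184), and Etf1, which reads the stop codon, had 177.6 in q2 and 204.6 in q1 (-0.20), both from the authors' deposited table. With the length and GC trend subtracted, Abce1 had a log2 ratio of -0.17, Gspt1 of -0.26 and Etf1 of -0.02. Gspt2, an intronless copy of Gspt1, was untested at 2.996 in q2 and 5.91 in q1.

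Across the factors, the sign of the ratio followed the base composition of the transcript. Of 16 tested factors with a GC content under 45%, 13 had a higher value in q1. These included Abce1, Eif5b, Eif3a, Eif3e, Eif4a2 and Eif5. Of 18 with 52% or more, 17 had a higher value in q2, among them Eif6, Eif3g, Eif3d and Eef2, and Eif2b5 was the exception. The median log2 ratio was -0.25 in the first group, 0.03 in the 16 factors between, and 0.23 in the GC-rich group. The same held for protein-coding genes in general, with medians of -0.26 over 1019 tested genes, -0.03 over 2006 and 0.21 over 2454. In the same order, 23.1%, 46.9% and 74.9% of these genes had a higher value in q2. After recentring on the median of all tested genes, 14 of the 16 AT-rich factors lay below 0 and 15 of the 18 GC-rich ones above.

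As a description across genes, which share libraries and are not replicates, Spearman's rho between log2 ratio and GC content was 0.60 over the 50 factors. It was 0.65 over the 44 that did not pass, 0.78 over the 12 subunits of eIF3 and 0.47 over all 5479 tested protein-coding genes. With transcript length rho was -0.38 over the factors and -0.41 over all of these genes. GC content and length went together in the factors (rho -0.39). The part that GC content or length has in any single difference was not tested.

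Several factors stood away from this trend. When the median of the 200 genes nearest in length and GC content was subtracted, Eef1b2 kept 0.65 of its log2 ratio of 0.67, and Eif4ebp1 0.56 of 0.61. Eif3f kept -0.91 of -0.94 and Eif5b -0.83 of -1.15. Eif6 had 0.66 left of 1.03, and Abce1 had -0.17 left of -0.51. Among factors that did not pass, Eif1 had -1.11 and Eif4e2 -0.91, while their neighbours in length and GC content lay at 0.20 and 0.11. In the other direction, Eif2s1 had 0.36, Eif2s2 0.33 and Eif4e 0.33, with neighbours at -0.30, -0.22 and -0.36. The median absolute log2 ratio of the tested factors was 0.24 before and 0.18 after the subtraction.

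**Figure D3:**
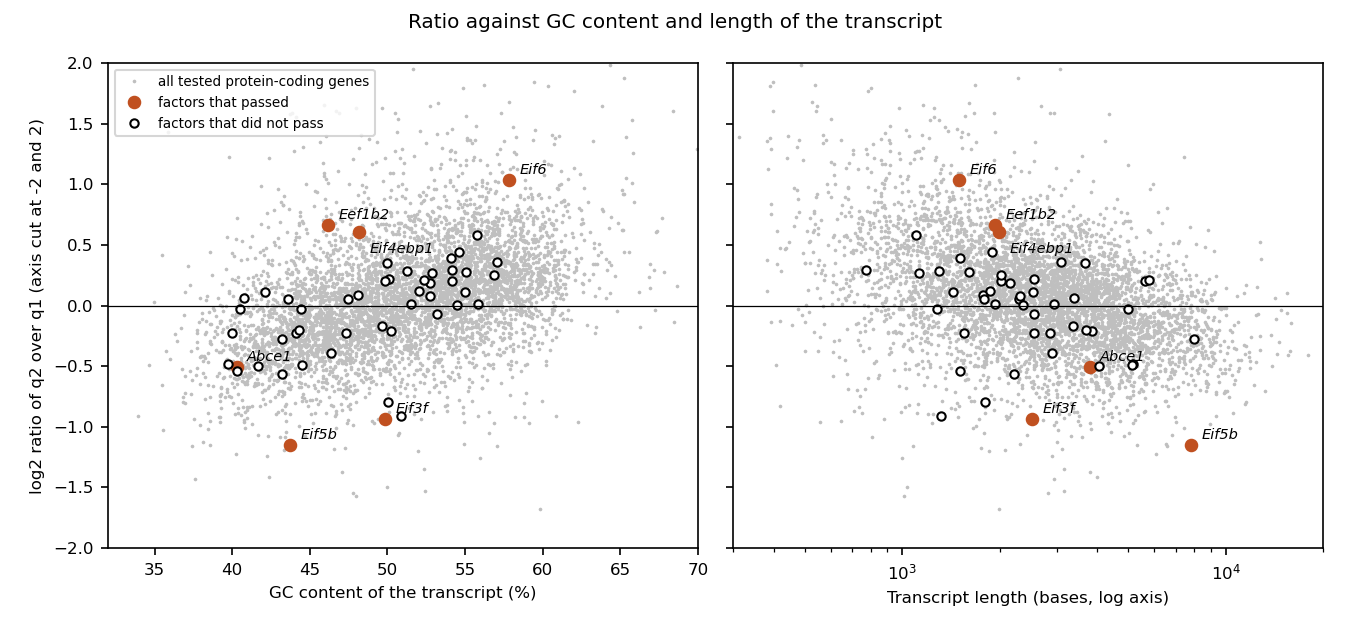
The log2 ratio of q2 over q1 against the GC content (left, percent) and the length (right, bases on a log axis) of the transcript, for all tested protein-coding genes (grey) and the tested factors (circles, filled where they passed). Beyond the axes lie 17 genes on the left and 20 on the right. The factors run with the grey cloud from low left to high right in GC content, and the lowest circles are Eif5b (-1.15) and Eif3f (-0.94), the highest Eif6 (1.03).

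Genes that act on the factors or beside them were read from 7 lists. Of 66 genes, 45 were tested and 3 passed, which is 6.67%, beside 4.25% of all tested genes. Dohh, which completes the hypusine that eIF5A needs, was higher in q2, with 113.2 in q2 and 69.2 in q1 in the authors' deposited table (log2 ratio 0.71, Cuffdiff q = 0.0348). Its partner Dhps had 0.44 and did not pass (Cuffdiff q = 0.360), and Dph5, which acts in making the diphthamide of eEF2, had 0.07. Ddx3x, a helicase that aids scanning of structured mRNA, was lower in q2, with 146.7 in q2 and 229.5 in q1 in the authors' deposited table (log2 ratio -0.65, Cuffdiff q = 0.00367). Pabpc1, the poly(A)-binding protein that touches eIF4G, had 53.3 in q2 and 155.3 in q1 in the authors' deposited table (log2 ratio -1.54, Cuffdiff q = 0.00367). The other tested genes of the poly(A) bridge, Pabpc4, Paip2 and Paip2b, had 0.44, -0.07 and -0.28.

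None of the 6 tested genes for kinases and phosphatase subunits of eIF2 and their regulators passed, and none had an unadjusted Cuffdiff p under 0.05. Their most abundant members, Impact, Ppp1r15b and Gcn1l1, had log2 ratios of -0.21, -0.13 and 0.13. The same held for the 3 tested targets of the integrated stress response, Atf4 (165.4 in q2 and 130.5 in q1, log2 ratio 0.34), Asns (0.04) and Sesn2 (-0.06). Among 6 tested genes of mTOR signalling none passed and 2 had an unadjusted Cuffdiff p under 0.05. These were Larp1, which binds TOP mRNAs (log2 ratio -0.39, Cuffdiff q = 0.186), and the eIF4E kinase Mknk2 (0.48, Cuffdiff q = 0.215). Rheb, the GTPase that switches mTOR on, had -0.46.

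In the list of non-canonical initiation and ribosome rescue, 13 of 14 tested genes did not pass. Abcf2 and Abcf1 had log2 ratios of 0.12 and -0.05, and the ubiquitin ligase Ltn1, which marks stalled chains, had -0.46 (Cuffdiff q = 0.187). None of the 5 tested mitochondrial factors passed or had an unadjusted Cuffdiff p under 0.05, and Tsfm, Gfm1 and Gfm2 had 0.16, -0.07 and 0.49. Here too the log2 ratio was higher at higher GC content, as a description (Spearman's rho 0.50 over the 45 tested genes).

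**Figure D4:**
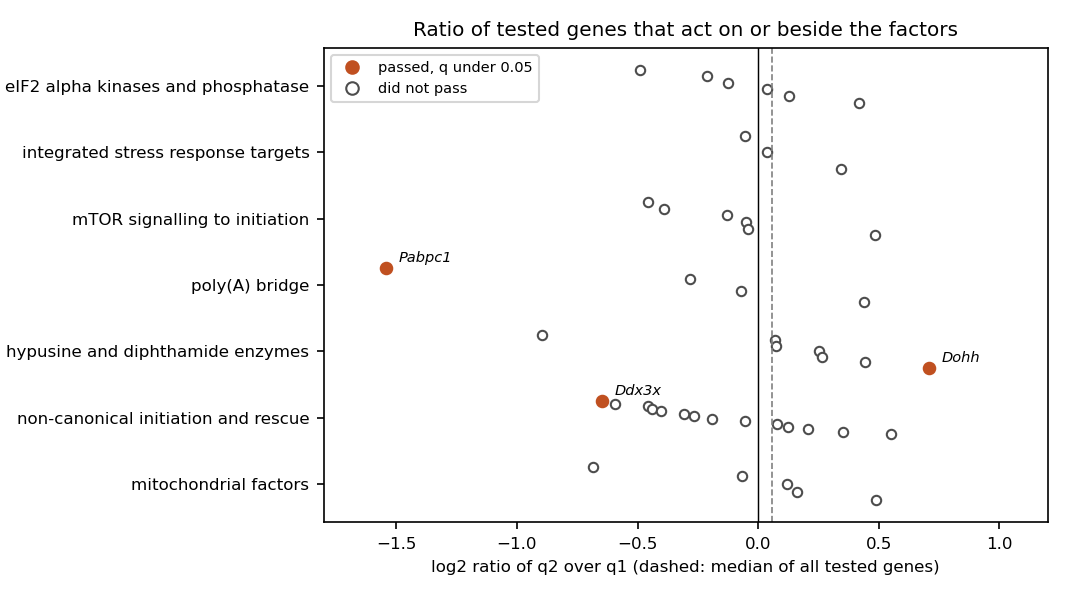
The log2 ratio of q2 over q1 of the 45 tested genes of the 7 lists, 1 point per gene, filled where it passed the authors' test. Pabpc1 (-1.54) and Ddx3x (-0.65) lie furthest to the left among those that passed and Dohh (0.71) to the right, while the other 42 genes did not pass.

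Some values rest on sequence that other genes share. Of the 50 tested factors, 15 have 1 or more transcripts of another gene with at least 95% identity over at least 200 bases. Eif1 has 13 such copies, Eef1a1 10 and Eef1g 4. Of the factors that passed, Eef1b2 has 1, over 278 bases, and the other 5 have none. The median log2 ratio was 0.08 for the 15 and 0.01 for the 35 without a copy. The 12 untested factors had values of at most 12.5, below the 21.3 that every tested factor reached in at least 1 condition, and no count here speaks for them.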

How the data were processed

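The authors deposited 1 table with the columns of Cuffdiff, per the file headers, with 23922 genes and the 4 libraries merged into conditions q2 and q1. The submitters' processing notes name TopHat, Cuffdiff, mm10 and GRCm38.p4. The sources used here give no versions, options or strand setting. The deposited values were taken as FPKM. The deposited p-values and q-values are those of the authors. The deposited statistic is a signed score and entered no result.

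The log2 ratio was computed again from the values, because 1055 deposited log2 cells held spreadsheet errors; readable cells differed by at most 3.34e-05. The q-values matched a Benjamini-Hochberg adjustment over the 5719 tested genes to 5.24e-07. The smallest p, 5e-05, was shared by 78 genes. Medians leave out the 65 tested genes at 0 in a condition. Lengths and GC content come from 1 GENCODE M21 transcript per gene, found for 99.6% of tested genes, and near-identical copies from BLAST 2.17.0. Fragment numbers were fitted from the spacing of low values of 3281 genes with a single transcript. There, 69.4% of low values in q2 and 70.9% in q1 lay within 0.15 of a whole step, so they are estimates. Start windows are from RefSeq. Adjustment, trend and step fit were tested on simulated data, with Python 3.11.15. The simulated steps were made with the same lengths that the fit used, so they cannot show how exact the fitted fragment numbers are.

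Every tested member may be named, and untested ones from a value of 5. Of the control lists, genes that passed and the 3 most abundant of each list are named. Pabpc4, Ltn1, Eif3j1, Eif3j2, Eif4e1b, Eif4e3 and Eef1a2 were added after their values were seen. The limits of 45% and 52% GC content were not planned. Members and lists were chosen with earlier results of these data known.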

Additional observations from a re-analysis of the deposited data

How the results depend on the processing

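Of the 6 factors that passed, Eif6, Eef1b2 and Eif5b also passed at a q under 0.01, which left 1 factor higher in q1. With a q under 0.10 there were 6 higher in q1, and with an unadjusted p under 0.05 there were 6 higher in q2 and 10 higher in q1. With values of at least 10 in both conditions 1 factor was higher in q1, since Eif5b has 9.58 in q2 and Abce1 no longer passed. Leaving out members with a near-identical copy, or hosts of small nucleolar RNAs, gave 2 higher in q2 and 3 in q1 in either case. In the control lists no gene was higher in q2 at a q under 0.01 (count 0), and at an unadjusted p there were 2 higher in q2 and 4 in q1.

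Several medians turned sign. With the length and GC trend removed, the median log2 ratio became -0.0049 for eIF2B, -0.12 for eIF3, 0.014 for eIF4F and helpers, -0.0104 for eEF1 and -0.0106 for all members, and moved to -0.17 for termination and recycling. Recentred on the upper quartiles it was -0.12 for eIF3, -0.062 for eEF1 and -0.084 for all members, and on the median -0.044 for eIF3 and -0.0032 for all members. Without members that have a near-identical copy it was -0.074 for eEF1, and with values of at least 10 in both conditions 0.27 for subunit joining, where Eif5b drops out. As no replicate spread exists, a median counted as moved when it shifted by more than the SD among its members. The other median alternatives kept their sign. The cause was not tested beyond this. No paired analysis was possible because libraries have no values of their own in the table, and for the same reason no library could be left out. Depth limits Eif1 most among the tested factors, at about 38.0 fragments in q2 and 61.6 in q1.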
